A study of Mus musculus with 28 samples.

Results

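Transient regions were chromatin regions with a peak part-way through the conversion of fibroblasts to muscle progenitor cells and no peak at its start or end. They were chosen from peak lists. Peaks of 27 lists were merged into 255567 regions wherever they overlapped by at least 1 bp, and a library called a region in which it had a peak. A transient region was called in both libraries of Dox+FRG day 2, day 4 or day 6, on at least 1 of these days. It was called in neither library of day 0, unsorted Dox+FRG day 8, Dox+FRG day 8 GFP, Dox+FRG day 10 GFP, quiescent satellite cells and activated satellite cells, which makes 12 lists without it. This left 1962 regions of 255567, or 2.92% of the 67247 regions called in both libraries of day 2, 4 or 6. Since the lists of these days and of the 12 others chose the regions, their values there are given as a description with no test.

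The data came from ATAC-seq, in which a transposase cuts open chromatin and the released fragments are sequenced, in 14 groups of mouse cells with 2 libraries per group, 28 libraries in all. The MEF14 cells were mouse embryonic fibroblasts taken at E13.5. Every MEF14 group carried Rosa-rtTA with Col1a1-tetO-MyoD, through which doxycycline induces MyoD from a transgene, and also Pax7-nGFP, a nuclear green fluorescent reporter of Pax7. Day 0 cells were not treated. Dox+FRG cells received 2 µg/ml doxycycline with 5 µM forskolin, 5 µM RepSox and 3 µM CHIR99021, a GSK3 inhibitor, and FRG is read here as the initials of these small molecules. Dox cells received doxycycline alone (days 4 and 8) and FRG cells the small molecules alone (day 8). Media of the converted cells held 10 ng/ml basic FGF. The MEF10 groups, MyoD+FRG and MN+FRG at day 6, are named as given FRG too. The growth protocol, which all samples share, names no fibroblasts other than those above and no doses other than these, and whether MEF10 cells carried the same alleles or received doxycycline is not stated for them. MN is not defined. Satellite cells came from Pax7-nGFP mice of 10 to 12 weeks. The labels do not say that replicates were grown or isolated separately, so p-values measure the spread between libraries, which may be technical. Where a test pools days or groups, that spread also holds the differences between them. Libraries without a GFP label are called unsorted, although the labels do not say how cells were sorted. No marker gene was checked, because no gene annotation of mm9, the build of the lists, was used here.

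MyoD is a transcription factor that binds E-box sequences and can open closed chromatin at muscle genes, and its expression in fibroblasts can turn them into muscle cells. Forskolin raises cyclic AMP, RepSox inhibits the TGF-beta type I receptor, and CHIR99021 activates Wnt signalling by inhibiting GSK3. Given together with MyoD they are used to derive proliferating progenitor cells that express Pax7, the transcription factor of satellite cells. During a change of cell identity chromatin can open in passing, at regions that neither the starting nor the final cell uses.

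Each list holds the position of every peak of 1 library and no height, score or read count, so depth is unknown and a region without a peak may still have held reads. The lists held 37301 to 134997 peaks. Those of days 2, 4 and 6 held 46017 to 70877 peaks and those of the 12 lists without transient regions 37910 to 70756. Lists of the Dox groups (89871 to 130916 peaks) and of the FRG group (133267 and 134997) were longer, and their peaks were narrower, with most common widths of 78 to 88 bp and of 61 and 63 bp against 160 to 205 bp at days 2, 4 and 6. In MEF10 MyoD+FRG, replicate 1 held 37301 peaks and replicate 2 held 91401 peaks with a median width of 722 bp, and the latter stood apart and took no part in the merging. The part of list length and peak width in the shares below was not tested on its own.

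Most transient regions belonged to 1 day. In all, 1721 of 1962 (87.7%) were called in both libraries of 1 day only, of which 796 at day 2, 305 at day 4 and 620 at day 6. A further 100 regions were called at days 2 and 4, 65 at days 4 and 6, 31 at days 2 and 6, and 45 on all 3 days. Counted by day, both libraries of day 2 called 972 regions, those of day 4 515 and those of day 6 761. Of all merged regions, both libraries of days 2, 4 and 6 called 41457 (16.2%), 47136 (18.4%) and 54127 (21.2%). Day 2 and day 6 thus supplied most of the set, and day 4 the fewest, while among all regions day 2 had the fewest. A call in both libraries is limited by the shorter list, which held 46017 peaks at day 2 and 51536 at day 4. The part of list length in these counts was not tested.

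Single calls on a neighbouring day were common. Of the 796 regions of day 2 only, day 4 replicate 1 called 240 and day 4 replicate 2 called 39, while the day 6 libraries called 49 and 63. Of the 620 regions of day 6 only, the day 4 libraries called 201 and 52 and the day 2 libraries 44 and 8. In both cases day 4 replicate 1, with 70877 peaks, called more of them than day 4 replicate 2, with 51536. Altogether 320 regions of day 2 only (40.2%), 202 of day 4 only (66.2%) and 270 of day 6 only (43.5%) were also called by 1 library of another day. Of these single-day classes, day 4 only was most often accompanied by such a call, and among regions of 2 days those of days 2 and 6 were, in 24 of 31 (77.4%).

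The edge of the rule was close to this. Just inside it, 929 regions were called in both libraries of 1 day and in no other library of days 2, 4 and 6. Just outside it, 7636 regions were called in 1 library of 1 day and otherwise met the same rule. The median width was 238 bp inside and 192 bp outside. FRG replicate 1 called 54.6% inside and 41.0% outside, Dox day 8 replicate 2 49.3% and 40.4%, and MEF10 MN+FRG replicate 1 48.9% and 30.9%. At least 1 of the 9 lists that took no part in the choice called 92.0% of the regions inside and 76.1% of those outside.

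These 9 lists, from the Dox, FRG and MEF10 groups without MEF10 MyoD+FRG replicate 2, give a measure of the regions that the rule did not use. They called 1860 of the 1962 transient regions (94.8%) at least once, against 88.9% of all merged regions and 99% of the regions called in both libraries of day 2, 4 or 6. This share lay between those of the 2 larger sets and was not particular to transient regions. The word transient refers to the Dox+FRG course and does not mean a lack of peaks elsewhere. Another 102 regions (5.20%) were called in none of the 9 lists, against 11.1% of all merged regions and 0.961% of those of day 2, 4 or 6, and 30 (1.53%) in all 9, against 10% and 37.3%. By day, 11 of the 796 regions of day 2 only, 20 of the 305 of day 4 only and 70 of the 620 of day 6 only were called in none.

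**Figure D1:**
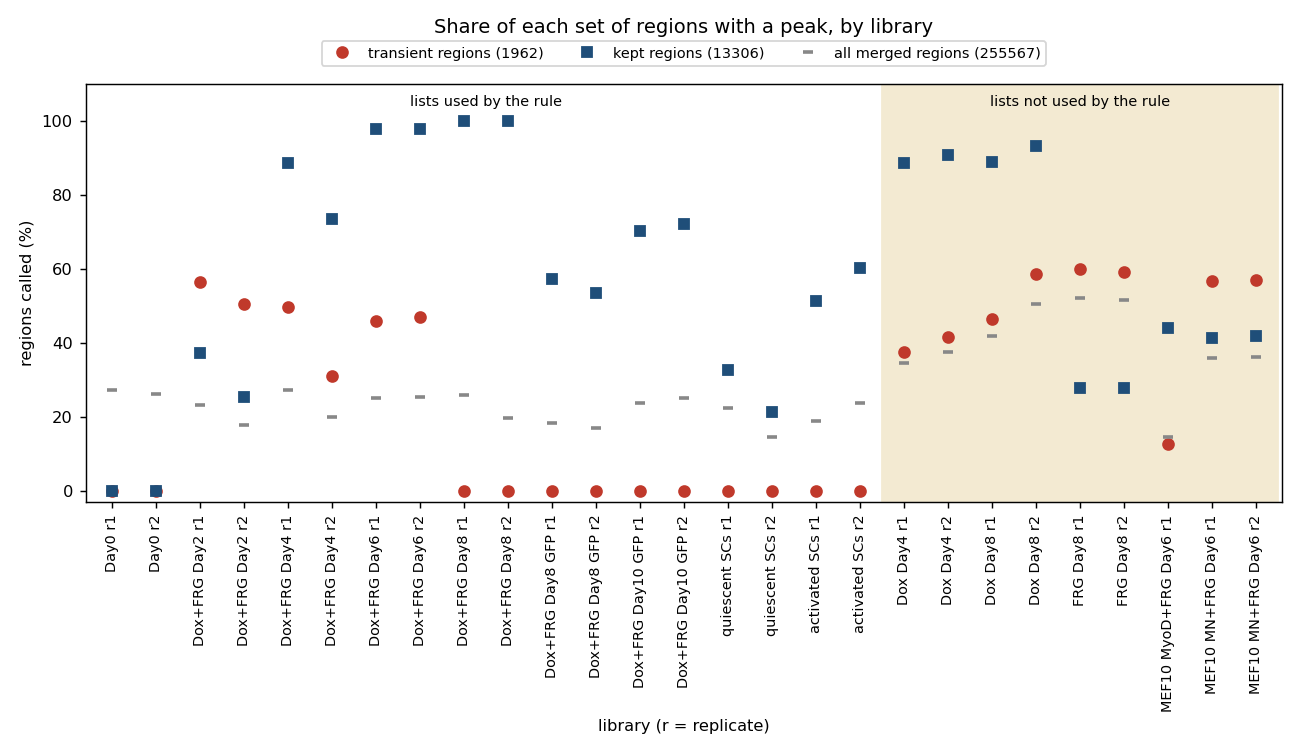
Share of regions with a peak (%, vertical axis) in each of the 27 libraries, for the transient regions, the kept regions (also called in both libraries at day 8) and all merged regions; the shaded lists did not choose the regions. Among the shaded lists, transient regions lie above kept regions in the FRG and MEF10 MN+FRG lists and below them in the Dox and MEF10 MyoD+FRG lists.

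Without the small molecules, Dox day 4 replicates 1 and 2 called 37.5% and 41.4% of the transient regions, and Dox day 8 replicates 1 and 2 called 46.4% and 58.5%. The same lists called 34.5%, 37.6%, 41.8% and 50.4% of all merged regions. The Dox shares were thus near those of all regions. They lay far below the shares of the regions of day 2, 4 or 6, which were 83.1%, 85.4%, 88.4% and 93.1%. Of the latter regions, 59.8% were called in both day 0 libraries and 55.1% in both activated satellite cell libraries. The rule allowed no transient region a call in these, and how far this sets the gap was not tested. The 2 FRG libraries, treated with the small molecules and no doxycycline, called 59.99% and 59.17% of the transient regions and 52.1% and 51.5% of all regions. MEF10 MN+FRG called 56.6% and 57.1%, against 35.8% and 36.1% of all regions. MEF10 MyoD+FRG replicate 1, the shortest list, called 12.6% against 14.4%.

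Every Dox library called a smaller share of all transient regions than either FRG library, by a narrow margin between Dox day 8 replicate 2 (58.46%) and FRG replicate 2 (59.17%). The mean was 45.9% ± 9.10 (SD, n = 4) in Dox and 59.6% ± 0.577 (SD, n = 2) in FRG, a difference of -13.6 percentage points (two-sided exact permutation test over 15 splits, p = 0.133, adjusted over 5 tests p = 0.222, with 0.0667 the smallest p possible). The Dox libraries pool days 4 and 8 and the FRG libraries are of day 8 alone. The Dox SD thus holds the difference between days, here and in the 2 log2 ratios below, and day and treatment are partly mixed. The direction turned to 1.24 points more in Dox with only the peaks that exceeded their list's common width, and to 4.79, 5.93 and 17.9 points more without day 6 replicate 1, day 6 replicate 2 or unsorted day 8 replicate 1. Dox day 4 cells called 39.5% ± 2.78 and Dox day 8 cells 52.4% ± 8.54 (SD, n = 2 each), a difference of -12.9 points (two-sided exact permutation test, p = 0.333, the smallest that 2 against 2 libraries can give). Both Dox day 8 libraries thus called more of the transient regions than both Dox day 4 libraries, on longer lists.

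Within Dox cells few regions were called early and missed late, among transient regions and among all merged regions. The Dox day 8 lists (108663 and 130916 peaks) were longer than those of day 4 (89871 and 97854). Both day 4 and neither day 8 library called 32 of 1962 (1.63%), against 0.899% of all merged regions. The reverse, both day 8 and neither day 4 library, held for 199 (10.1%), against 6.53% of all merged regions. All 4 libraries called 518 (26.4%), against 27.6%.

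The day on which a region was called separated the lists more clearly than the set as a whole did. Regions of day 2 only were called more often in FRG cells than in Dox cells. FRG replicates 1 and 2 called 709 and 702 of these 796 regions, or 89.1% and 88.2%. Dox day 4 replicates called 12.6% and 15.2%, and Dox day 8 replicates 25.5% and 40.5%. MEF10 MN+FRG replicates called 77.1% and 79.0%, and MEF10 MyoD+FRG replicate 1 called 9.42%. No Dox list reached the share of any FRG or MN+FRG list. Of all merged regions, FRG lists called a mean of 51.8%, MN+FRG lists 35.9%, Dox day 4 lists 36.1% and Dox day 8 lists 46.1%. MyoD+FRG replicate 1 called 14.4% of them. The FRG and MN+FRG shares of day 2 regions thus lay above those of all regions, and the Dox and MyoD+FRG shares below.

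Regions of day 6 only showed the reverse order. The Dox lists called 64.5% and 67.4% of these 620 regions at day 4 and 63.1% and 71.6% at day 8. FRG replicates called 21.9% and 21.1%, and both MN+FRG replicates called 25.8%. MEF10 MyoD+FRG replicate 1 called 9.52%. Every Dox list called over 60% of the day 6 regions, and no FRG or MN+FRG list called over 30%. Against all merged regions, of which the means were 36.1% in Dox day 4, 46.1% in Dox day 8, 51.8% in FRG and 35.9% in MN+FRG lists, the Dox shares lay above. The FRG and MN+FRG shares lay below.

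**Figure D2:**
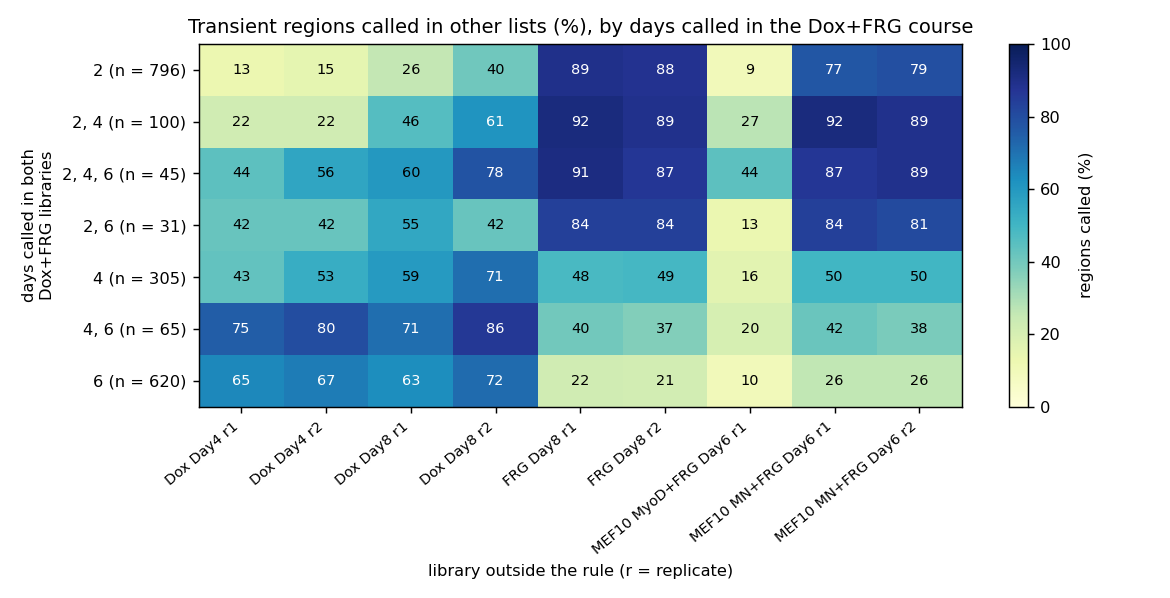
Share of transient regions (%, colour and printed number) called in each of the 9 lists outside the rule (columns), by the days on which both Dox+FRG libraries called them (rows, with the number of regions). Rows that include day 2 are dark under the FRG and MN+FRG lists, and the rows of days 4 and 6 and of day 6 only are dark under the Dox lists.

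Both shares can be set against each other within a list. The log2 ratio of the share of day 2 only to the share of day 6 only was -2.36 and -2.15 in Dox day 4, -1.31 and -0.82 in Dox day 8, and 2.02 and 2.06 in FRG libraries. It was negative in 4 of 4 Dox and positive in 2 of 2 FRG libraries. The means were -1.66 ± 0.72 (SD, n = 4) and 2.04 ± 0.03 (SD, n = 2), a difference of -3.70 (two-sided exact permutation test over 15 splits, p = 0.0667, the smallest that this design can give, adjusted over 5 tests p = 0.167). This ratio was chosen after the lists had been seen. The groups did not overlap, and the design cannot reach the 0.05 threshold. Kept regions, defined below, had the same order. Dox libraries called 56.9% to 68.8% of the kept regions of day 2 only and 75.9% to 84.0% of those of day 6 only. FRG libraries called 67.0% and 67.9% against 19.3% in both. The sign of the ratio was thus not particular to transient regions.

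In the Dox day 4, FRG and MN+FRG lists, transient regions of day 4 only lay between those of day 2 only and day 6 only. Dox lists called 48.2% ± 6.96 of the 305 regions at day 4 and 64.9% ± 8.35 at day 8, and FRG lists called 48.7% ± 0.696 (SD, n = 2 each). Both MN+FRG replicates called 49.8%, and MyoD+FRG replicate 1 called 16.1%, above its share of either other class. The Dox day 4 and FRG shares did not differ beyond the spread between libraries. Of all merged regions, Dox day 4 lists called a mean of 36.1%, Dox day 8 lists 46.1%, FRG lists 51.8% and MN+FRG lists 35.9%.

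Regions of more than 1 day were called more often in FRG than in Dox lists where day 2 was among their days, and more often in Dox lists where it was not. The 100 regions of days 2 and 4 were called at 90.5% ± 2.12 in FRG and in MN+FRG, and at 22% in both Dox day 4 libraries and 53.5% ± 10.6 in Dox day 8 (SD, n = 2 each). The 31 regions of days 2 and 6 were called at 83.9% in both FRG libraries and at 41.9% in both Dox day 4 libraries. The 65 regions of days 4 and 6 were called at 77.7% ± 3.26 in Dox day 4, 78.5% ± 10.9 in Dox day 8 and 38.5% ± 2.18 in FRG lists. The 45 regions of all 3 days were called at 50.0% ± 7.86 in Dox day 4, 68.9% ± 12.6 in Dox day 8, 88.9% ± 3.14 in FRG and 87.8% ± 1.57 in MN+FRG lists. They were also called at 44.4% in MyoD+FRG replicate 1, the highest share of any class in that list. None of these differences was tested.

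Seen region by region, the calls of Dox and FRG cells coincided in part. Both FRG libraries called 1120 of the 1962 transient regions (57.1%, against 45.4% of all merged regions and 73.4% of those of day 2, 4 or 6), and 487 of them were called in no Dox library. These 487 made up 24.8% of the transient regions, against 16.9% of all merged regions and 3.27% of those of day 2, 4 or 6. All 4 Dox and no FRG library called 347 (17.7%), against 9.06% and 18.6%. All 4 Dox and both FRG libraries called 143 (7.29%), against 17.5% and 56.8%, and no library of either group called 132 (6.73%), against 15% and 1.17%. Of the regions of day 2 only, 382 (47.99%) had the FRG pattern and 11 (1.38%) the Dox pattern. Of those of day 6 only, 26 (4.19%) had the FRG pattern and 229 (36.9%) the Dox pattern. The MEF10 MN+FRG lists went with FRG in this respect, since both of them and no Dox library called 286 of the day 2 regions (35.9%) and 22 of the day 6 regions (3.55%), against 5.5% of all merged regions and 2.43% of those of day 2, 4 or 6.

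**Figure D3:**
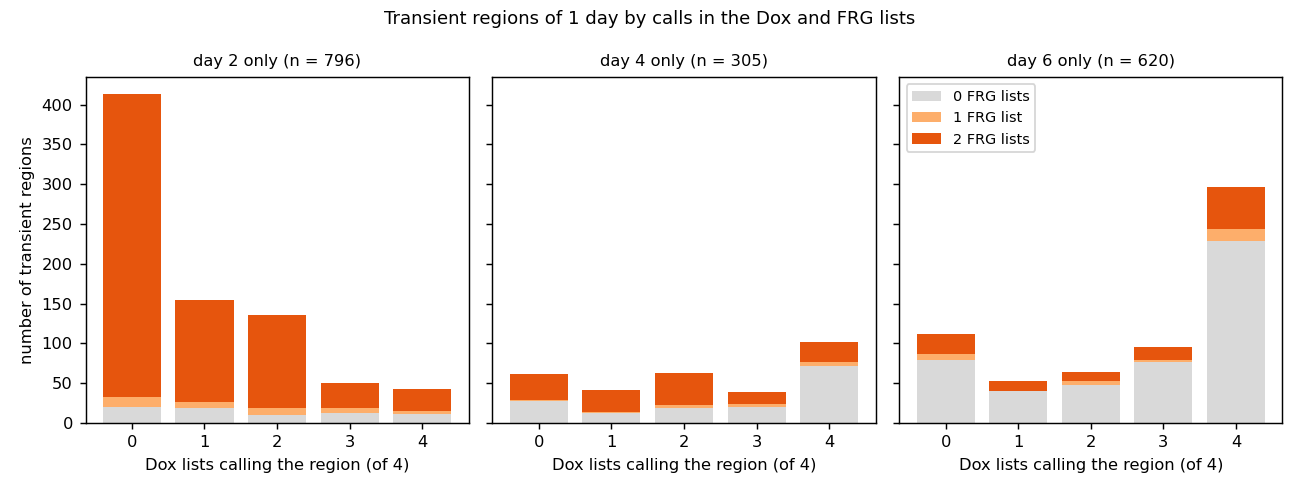
Number of transient regions of day 2 only, day 4 only and day 6 only (vertical axis, 1 panel each) by how many of the 4 Dox lists called them (horizontal axis), with colours for the number of FRG lists. The tallest bar of day 2 stands at 0 Dox lists and is mostly regions called in both FRG lists (382), while that of day 6 stands at all 4 Dox lists and is mostly regions called in no FRG list (229).

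Taken by group, both MN+FRG libraries called 1012 transient regions (51.6%), against 30.6% of all merged regions, both Dox day 4 libraries 646 (32.9%), against 30.7%, and both Dox day 8 libraries 836 (42.6%), against 38.5%. Among the regions of day 2, 4 or 6 these shares were 72.7%, 80.3% and 87.3%, all above those of the transient regions. Many of those regions were called at day 0 or in satellite cells, where the rule allowed no transient region.

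Kept regions served as the comparison. They were 13306 regions called in both libraries of day 2, 4 or 6, in neither day 0 library and in both unsorted day 8 libraries, so they opened in the same course and were still called at its last unsorted day. GFP-labelled and satellite cell lists had no part in choosing them. Dox+FRG day 10 GFP libraries called a mean of 71.1% of kept regions, and activated satellite cell libraries 55.8%. The days of kept regions differed from those of the transient regions. Only 109 kept regions (0.819%) were of day 2 only, against 796 transient regions (40.6%). Another 6461 (48.6%) were of days 4 and 6, against 65 (3.31%), and 2547 (19.1%) of all 3 days, against 45 (2.29%). Both selections used these days, so no test was made.

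Dox cells called most kept regions, at 88.6% and 90.8% on day 4 and 89.0% and 93.2% on day 8, while FRG replicates called 27.8% and 27.7%. MEF10 MN+FRG called 41.4% and 41.8% and MyoD+FRG replicate 1 called 44.1%. Over the 9 lists the kept share was higher in 5 and the transient share in 4, and the mean difference of kept minus transient was 12.8 points (two-sided exact sign-flip permutation test over libraries, p = 0.289, adjusted over 5 tests p = 0.333). It turned to -3.79 points (p = 0.359 by the same exact test) where a library had to cover at least 50% of a region to call it. Both tests took the 9 lists as independent, although libraries of 1 group share a treatment. The lists on either side were not mixed. Kept regions were called more in all 4 Dox lists and in MyoD+FRG replicate 1, and transient regions more in both FRG and both MN+FRG lists.

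The log2 ratio of the transient to the kept share, again within a list, was -1.24 and -1.13 in Dox day 4, -0.94 and -0.67 in Dox day 8, and 1.11 and 1.10 in FRG libraries. The means were -0.996 ± 0.248 (SD, n = 4) and 1.10 ± 0.01 (SD, n = 2), a difference of -2.10 (two-sided exact permutation test over 15 splits, p = 0.0667, the smallest possible, adjusted over 5 tests p = 0.167). It was negative in every Dox and positive in every FRG library. In MN+FRG it was 0.45 in both libraries and in MyoD+FRG replicate 1 it was -1.81. Kept regions had to be called in both unsorted day 8 libraries of Dox+FRG, and transient regions in neither. How far this choice sets the ratio was not tested.

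Kept and transient regions of the same day differed in their Dox calls. Of the 109 kept regions of day 2 only, Dox day 4 libraries called 59.6% ± 3.89, Dox day 8 libraries 64.7% ± 5.84 and FRG libraries 67.4% ± 0.649 (SD, n = 2 each). The transient regions of day 2 only stood at 13.9% ± 1.87, 33.0% ± 10.6 and 88.6% ± 0.622. Of the 3475 kept regions of day 6 only, the same lists called 78.0% ± 2.93, 80.3% ± 5.31 and 19.3% ± 0.0407, against 66.0% ± 2.05, 67.3% ± 6.04 and 21.5% ± 0.570 of the transient ones. For day 2 the Dox libraries called 56.9% to 68.8% of the kept and 12.6% to 40.5% of the transient regions, and for day 6 75.9% to 84.0% and 63.1% to 71.6%. The Dox shares of kept and transient regions did not overlap on either day, and the gap was wider for day 2. Kept regions had to be called in both unsorted day 8 libraries of Dox+FRG, whose cells received doxycycline too, and transient regions in neither. These differences were not tested, nor was how far that choice sets them.

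Peaks in transient regions were seldom wide. In each of the 27 merged lists most peaks had 1 common width, and wider peaks are the only sign of a broader signal in these files. At days 2, 4 and 6, 0.491% to 2.98% of the peaks in transient regions were wider than the common width, against 2.59% to 9.11% of those in kept regions and 7.11% to 10.96% of all peaks. In Dox lists 8.92% to 12.3% of the peaks in transient regions were wider, against 22.04% to 24.5% in kept regions. In FRG lists the order turned, with 38.1% and 38.3% in transient regions against 31.4% and 32.3% in kept regions. The MN+FRG lists did not follow this order, with 9.34% and 12.6% in transient regions, 10.1% and 12.1% in kept regions and 14.1% and 16.6% of all peaks. All 247 peaks that MyoD+FRG replicate 1 had in transient regions were of the common width.

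**Figure D4:**
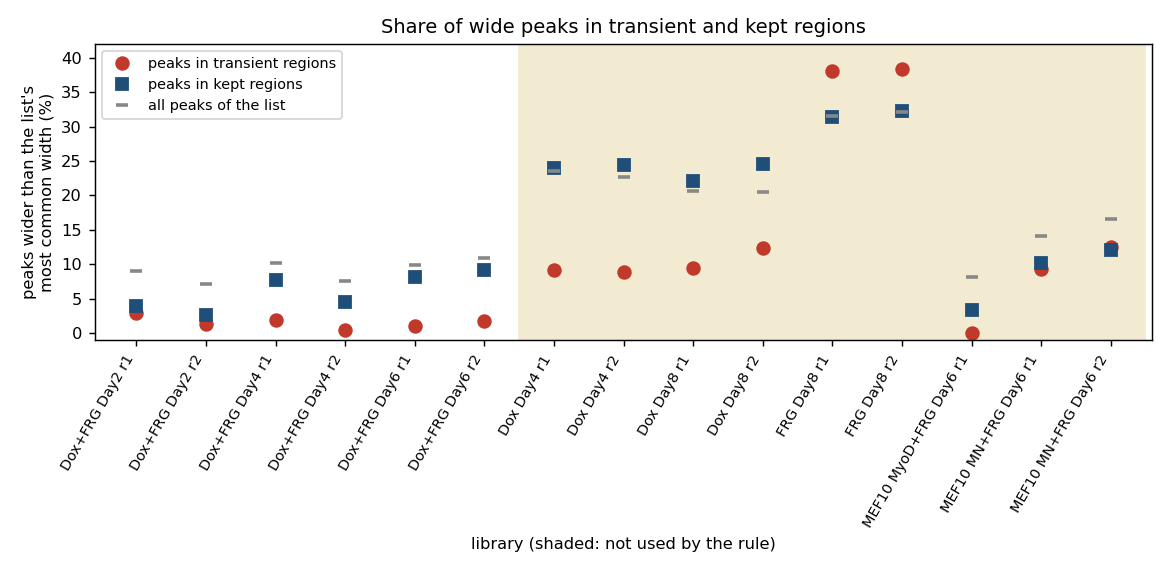
Share of peaks that exceeded the common width of the list (%, vertical axis) in 15 libraries, for peaks in transient regions, in kept regions and for all peaks; shaded lists did not choose the regions. Transient regions lie lowest at days 2, 4 and 6 and in the Dox lists, and highest in the 2 FRG lists (38.1% and 38.3%).

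With only such wider peaks in every list, the rule gave 422 transient regions, of which 120 of day 2 only and 197 of day 6 only. FRG replicates called 89.2% and 81.7% of the day 2 regions, and the 4 Dox lists 25.0% to 43.3%. Of the day 6 regions FRG replicates called 34.5% and 37.6% and the Dox lists 62.4% to 70.1%. The opposite order of the 2 classes was thus present among wider peaks too. These 422 regions were chosen anew and need not be among the 1962.

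Merged regions differed in width. Transient regions had a median width of 262 bp (quartiles 215 and 487 bp), against 362 bp for kept regions, 530 bp for the regions of day 2, 4 or 6 and 200 bp for all merged regions. By day the median was 300 bp for day 2 only, 278 bp for day 4 only and 212 bp for day 6 only, and 385 bp for regions of all 3 days. The width of a merged region grows with the number of lists that call it. It also cannot fall below the widest peak in it, and the common peak widths were 192 and 205 bp at day 2. They were 178 and 172 bp at day 4 and 172 and 160 bp at day 6.

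Few transient regions lay close to a region called elsewhere. The nearest region called by any of the 12 lists without them lay a median of 4.54 kb away, against 4.01 kb for kept regions and 4.02 kb for the regions with 1 library of a day. Within 500 bp such a region was found for 55 of 1962 (2.80%), and within 1 kb for 136 (6.93%), against 6.74% and 11.7% of the regions with 1 library of a day and 1.73% and 5.24% of kept regions. The nearest kept region lay 53.1 kb away (66.4 kb for day 2 only and 41.5 kb for day 6 only) and the nearest other transient region 357 kb away, close to the distance of a transient region from kept regions (365 kb) and from those with 1 library of a day (371 kb). No 2 transient regions lay within 1 kb of each other.

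Every autosome and chromosome X held transient regions. Their number ran from 33 on chromosome 19 to 163 on chromosome 2. Relative to the regions of day 2, 4 or 6 on the same chromosome they made up 2.06% on chromosome 19 and 4.12% on chromosome 14, the lowest and the highest share, and 2.64% on chromosome X. On chromosome 19, 23 of the 33 regions were of day 2 only and 6 of day 6 only, while chromosome 14 had 36 and 41. In windows of 100 kb, 1733 transient regions (88.3%) were alone, 110 windows held 2 and 3 windows held 3.

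The 3 fullest windows mixed days. On chromosome 10 from 54200001 to 54300000 (mm9) 3 of the 6 regions were transient, each a few kb from the next. The first, from 54271920 to 54272123, was called at day 4 and in all 4 Dox lists, and the third, from 54278524 to 54278732, at day 6 and in all 4 Dox lists, while neither was called in the FRG lists. The first was also called in MyoD+FRG replicate 1 and both MN+FRG lists, and the third in 1 MN+FRG list. Between them lay a region of day 2, from 54276163 to 54277246, called in both FRG lists and 1 Dox list. The same division held on chromosome 2 from 163000001 to 163100000, where 3 of 14 regions were transient. There the day 2 regions, from 163057625 to 163058141 and from 163061823 to 163062139, were called in both FRG lists and 1 Dox list. The day 4 region, from 163065719 to 163065947, was called in 3 Dox lists and no FRG list. On chromosome 3 from 9400001 to 9500000, 3 of 25 regions were transient. Its day 2 regions, from 9402932 to 9403897 and from 9456000 to 9456302, were called in both FRG lists, and 2 Dox lists called the former. The day 6 region, from 9432280 to 9432451, was called in 1 of the 9 lists outside the rule, a Dox list.

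Of the regions called on all 3 days, 3 that were called in all 9 lists outside the rule led by width. They lay on chromosome 19 from 42792004 to 42792755, on chromosome 2 from 142844388 to 142844875 and on chromosome 3 from 111578030 to 111578495. Each was called in 15 lists and absent from the 12 lists of day 0, day 8, GFP-labelled and satellite cells. In the first, the peaks of the other libraries lay within 139 bp of the middle, and those of FRG replicates 1 and 2 spread over 752 and 422 bp.

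Among regions of 1 day, those called in all 9 lists with the largest width lay on chromosome 2 from 99914170 to 99915634 (day 2), chromosome 16 from 96370604 to 96371178 (day 4) and chromosome 6 from 101295013 to 101296187 (day 6). Next came chromosome 8 from 89405236 to 89405481 and chromosome 6 from 110246672 to 110246896 for day 2. For day 4 these were chromosome 11 from 44662821 to 44663239 and from 35129166 to 35129546, and for day 6 chromosome 6 from 103289681 to 103290215 and chromosome 17 from 52388090 to 52388548. Width can join separate peaks. In the day 2 region on chromosome 2 the peaks of both day 2 libraries lay from -732 to -480 bp relative to the middle, and those of the 4 Dox lists from 614 to 724 bp after it. Wide peaks of FRG replicate 1 (1368 bp) and of both MN+FRG libraries joined them, and FRG replicate 2 had a peak at each end. The Dox calls there belong to another part of the region than the day 2 calls. In the day 4 region on chromosome 16 the peaks of both FRG and both MN+FRG lists lay from -287 to -164 bp. Those of both day 4 libraries lay from 98 to 288 bp, and wide peaks of both Dox day 8 libraries (473 and 474 bp) joined the 2 places. In the day 6 region on chromosome 6 the peaks of all 13 libraries that called it covered the stretch from -510 to -465 bp.

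**Figure D5:**
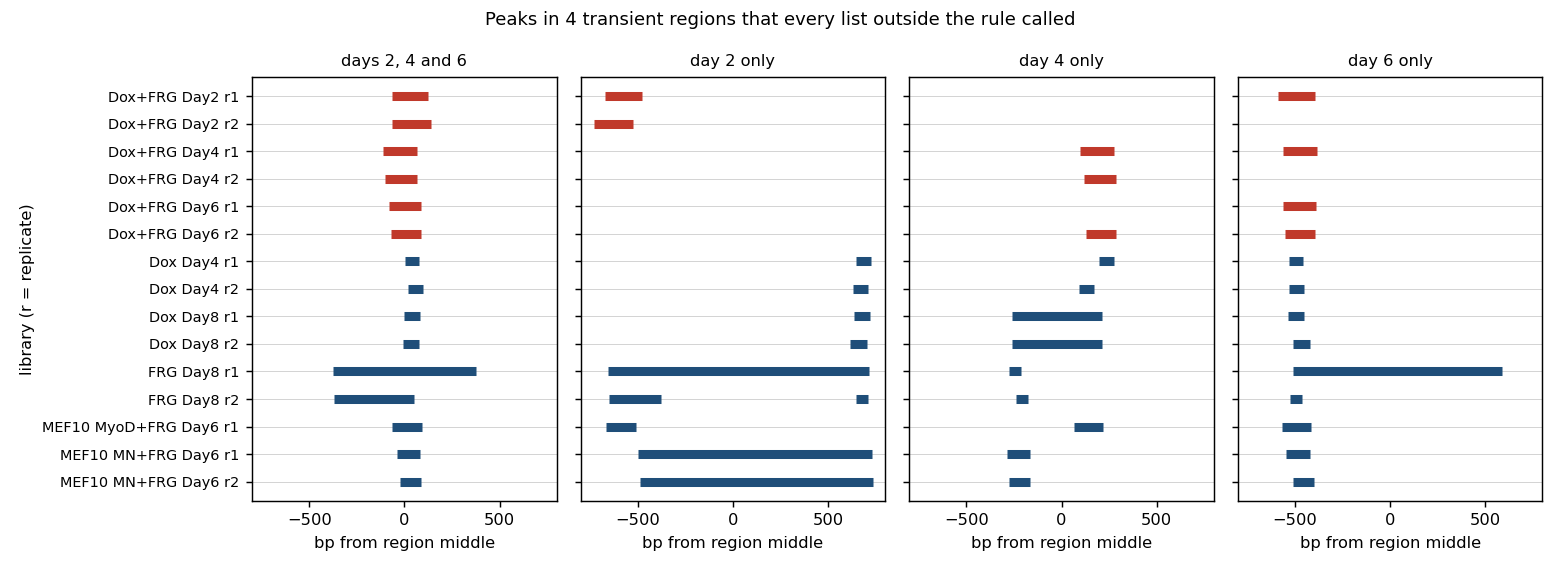
Peaks (bars) in 4 transient regions that all 9 lists outside the rule called, by distance from the middle of the region (bp, horizontal axis) and library (rows, r for replicate), red for days 2, 4 and 6 of Dox+FRG and blue for the lists outside the rule. In the day 2 panel the Dox peaks and the day 2 peaks lie at opposite ends. In the day 4 panel the FRG and MN+FRG peaks lie apart from the day 4 peaks. In the panels of all 3 days and of day 6 the libraries share 1 place.

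Over the whole set few calls missed the day 2, 4 or 6 peaks altogether. Where a list had to overlap a day 2, 4 or 6 peak itself and not only the merged region, FRG replicates still called 88.4% and 87.3% of the day 2 regions and the Dox lists 11.9% to 39.6%. Of the day 6 regions the shares were then 21.1% and 20.2% in FRG and 61.9% to 71.5% in Dox lists. A wide peak can pass this check although its middle lies elsewhere. With every peak set to 200 bp around its middle and the regions chosen anew, FRG replicates called 72.2% and 69.0% of 1020 day 2 regions. The Dox lists called 11.9% to 35.4% of these. Of 813 day 6 regions FRG replicates then called 17.8% and 16.9%, and the Dox lists 55.2% to 60.6%.

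The widest regions called in none of the 9 lists lay on chromosome 4 from 41122210 to 41123002 (day 6), chromosome 7 from 149000586 to 149001316 (day 4) and chromosome 18 from 42322099 to 42322462 (day 4). The first rested on 1 wide peak of 748 bp in day 6 replicate 1 and a peak of 160 bp in replicate 2. No peak of MEF10 MyoD+FRG replicate 2 overlapped any of these regions either.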

How the data were processed

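Libraries were made from 60000 cells each. The deposited files are peak lists with chromosome, start and end per peak and no other value, 1 list per library, and the authors used BWA and HOMER with mm9, per the submitters' processing notes. Tool versions, the peak threshold, filters on reads and whether reads were shifted for transposase binding: not given in the sources used here. Starts were taken as 0-based and are printed 1-based.

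Regions were merged and called with Python 3.11.15, numpy 2.4.6 and pandas 2.3.3, and figures drawn with matplotlib 3.10.9. The rule recovered the known answers on simulated lists with well separated sites and no missed calls, and the tests did so on short sets of numbers. Shares were compared by two-sided exact permutation tests over libraries, with Benjamini-Hochberg adjustment over 5 tests. Named regions were the 3 called in most of the 9 lists outside the rule (ties by width) among those of all 3 days and of each single day, the 3 widest called in none of these lists, and those of the 3 windows of 100 kb with most members. Members, lists and comparisons were chosen with earlier results of these data known. Genes, motifs and sequences had been planned, and are not analysed here because no mm9 genome or annotation was used. Alternatives were other overlap, gap and width settings, wider peaks alone, autosomes alone, regions merged from other lists, and each library left out in turn.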

Additional observations from a re-analysis of the deposited data

Results flagged for a closer look

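In 2 measures every Dox library lay on one side of 0 and every FRG library on the other. The log2 ratio of the share of transient regions called to the share of kept regions called was 2.10 lower in Dox (a Dox minus FRG difference of -2.10), and the log2 ratio of the shares of day 2 only to day 6 only regions had a difference of -3.70. Each difference was tested by an exact permutation test over 15 splits and had p = 0.0667, the smallest possible. Kept and transient regions were chosen by opposite calls in Dox+FRG day 8 cells, which bears on the first measure. Kept regions showed the same order of day 2 only and day 6 only, so the sign of the second was not particular to transient regions. No explanation was tested.

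The list of MEF10 MyoD+FRG replicate 2, left out of the merging, overlapped 64.7% of the transient regions, against 36.6% of all merged regions and 90.8% of kept regions. The untreated day 0 lists called 0 of them, which the rule set. Its peaks reach 202465 bp and cover 92.9 Mb. Replicate 1 of the same group called 12.6%.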

How the results depend on the processing

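The number of transient regions was 1962 as reported, 422 with wider peaks alone, and 1966 to 4810 when each library of the rule was left out in turn and the other stood for its group, which adds regions by construction. It was 4810 without day 2 replicate 2, 4437 without day 4 replicate 2, 3776 and 3810 without day 6 replicates 1 and 2, and 3536 without unsorted day 8 replicate 1. Other settings gave 1834 to 2588.

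The Dox minus FRG share of all transient regions ran from -38.0 to 17.9 points over left-out libraries. It turned with wider peaks alone (1.24 points) and without day 6 replicate 1 (4.79), day 6 replicate 2 (5.93) or unsorted day 8 replicate 1 (17.9), and the cause was not tested. The kept minus transient share ran from 8.002 to 20.5 points over left-out libraries and turned to -3.79 where peaks had to cover 50% of a region, a setting chosen after seeing the data. The 2 log2 ratios kept their direction in each of 35 alternatives, from -1.11 to -2.91 for transient to kept and from -2.26 to -4.40 for day 2 to day 6. Dox day 4 minus day 8 kept its direction in 33 alternatives, from -1.89 to -19.0 points. The planned overlap of 50% of the shorter of peak and region changed nothing, since a peak lies inside its region.

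With the replicate number as a replicate block, the exact permutation p was 0.222 for the share (-13.6 points), 0.111 for the transient to kept ratio (-2.10), 0.111 for the day ratio (-3.70) and 0.5 for Dox day 4 minus day 8 (-12.9 points). The block allows no p under 0.111 (0.5 for the last), so it could not have made a call. Deviations of same-numbered libraries correlated at 0.020 between Dox days, and at -0.00050 and 0.00075 between FRG and Dox day 4 or 8, so the numbers were not taken as pairs.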
